A study of Mus musculus with 3 samples.

Results

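The PDGF family was taken as 6 genes: the ligand genes Pdgfa, Pdgfb, Pdgfc and Pdgfd and the receptor genes Pdgfra and Pdgfrb. They were chosen by name and are 6 of the 18738 genes listed in the count tables, and each is among the 17460 genes listed in all 3 tables. The tables hold UMI counts (unique molecular identifiers, each standing for 1 captured transcript) from droplet single-cell RNA sequencing of 3 thawed lots of fetal ovarian somatic cells (FOSCs), named lot 26, lot 29 and lot 30. Each lot was a pool of E12.5 ovaries from the litters of 10 pregnant CD1 females (Charles River strain 022), cut free of the mesonephros, dissociated with trypsin, depleted of SSEA1- and CD31-labelled cells on a magnetic column and frozen. SSEA1 marks germ cells and CD31 marks endothelial cells, so the germ and endothelial cells described here are those that passed the column. All lots received the same treatment and belong to 1 condition, so no lot was set against another, and the cell classes were compared over the lots (n = 3 lots). Each lot was 1 pool of litters, thawed and sequenced as 1 sample. The spread between lots therefore holds litters, handling and sequencing depth together, which cannot be told apart.

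PDGF ligands are secreted dimers that bind receptor tyrosine kinases. PDGF-A and PDGF-C signal mainly through the alpha receptor, PDGF-B binds both receptors, and PDGF-D acts mainly through the beta receptor. PDGF-C and PDGF-D are secreted in a latent form and are activated when a protease removes their CUB domain. In many developing organs an epithelium or endothelium makes the ligand and the mesenchyme next to it carries the receptor, and in the fetal gonad the alpha receptor is known from the interstitium.

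A promoter window was read for 4 members, all but Pdgfb and Pdgfrb. Those of Pdgfra, Pdgfc and Pdgfa are shown, which among the 4 had the largest differences between the large cell classes (RefSeq, GRCm38.p6, 250 bases before to 50 bases after the start, each 5′ to 3′ in the direction of the gene). Capitals mark GC boxes, searched as GGGCGG on both strands, so that CCGCCC is the same motif read on the other strand.
Pdgfra, chr5:75152001-75152300, plus strand: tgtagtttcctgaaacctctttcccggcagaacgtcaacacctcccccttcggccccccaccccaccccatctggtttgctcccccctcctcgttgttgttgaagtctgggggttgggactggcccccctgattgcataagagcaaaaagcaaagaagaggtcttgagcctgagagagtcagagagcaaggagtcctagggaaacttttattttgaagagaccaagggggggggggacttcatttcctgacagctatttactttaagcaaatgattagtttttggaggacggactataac
Pdgfc, chr3:81036166-81036465, plus strand: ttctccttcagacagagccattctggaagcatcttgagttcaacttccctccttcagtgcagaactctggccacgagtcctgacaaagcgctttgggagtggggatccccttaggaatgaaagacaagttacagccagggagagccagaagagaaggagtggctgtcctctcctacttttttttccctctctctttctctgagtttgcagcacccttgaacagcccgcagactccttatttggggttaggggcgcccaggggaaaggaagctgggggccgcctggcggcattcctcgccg
Pdgfa, first start, chr5:138994895-138995194, minus strand: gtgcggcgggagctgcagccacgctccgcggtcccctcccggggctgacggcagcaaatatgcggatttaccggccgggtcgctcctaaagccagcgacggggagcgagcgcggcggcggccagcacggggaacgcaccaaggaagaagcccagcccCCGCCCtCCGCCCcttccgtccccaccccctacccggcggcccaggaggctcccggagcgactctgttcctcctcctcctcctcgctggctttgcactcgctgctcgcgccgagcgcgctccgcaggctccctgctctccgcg
Pdgfa, second start, chr5:138994232-138994531, minus strand: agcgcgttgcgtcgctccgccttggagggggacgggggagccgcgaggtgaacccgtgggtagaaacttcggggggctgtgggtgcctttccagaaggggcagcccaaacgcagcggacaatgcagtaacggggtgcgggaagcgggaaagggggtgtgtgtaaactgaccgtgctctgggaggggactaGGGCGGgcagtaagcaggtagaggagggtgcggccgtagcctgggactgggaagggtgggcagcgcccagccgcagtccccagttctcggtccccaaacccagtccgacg
Both windows of Pdgfa held the motif, with 2 matches at the first start and 1 at the second, and those of Pdgfra and Pdgfc held none. Of 32851 windows of the same length, 35.7% held a GC box. The Pdgfa windows were also rich in G and C, at 73.3% and 67%, against a median of 52.7% over all windows, 55% for Pdgfc and 51% for Pdgfra.

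On GRCm38 all 6 genes are protein-coding. Pdgfra (ENSMUSG00000029231) and Pdgfa (ENSMUSG00000025856) lie on chromosome 5, at 75152292 to 75198215 on the plus strand and at 138976014 to 138997370 on the minus strand. Both promoter windows of Pdgfa, placed by RefSeq starts, lie inside this span. In this annotation the gene begins upstream of them, at 138997370. Pdgfb (ENSMUSG00000000489) lies on chromosome 15 at 79995874 to 80014977 on the minus strand, Pdgfc (ENSMUSG00000028019) on chromosome 3 at 81036416 to 81214040, Pdgfd (ENSMUSG00000032006) on chromosome 9 at 6168584 to 6378850 and Pdgfrb (ENSMUSG00000024620) on chromosome 18 at 61045150 to 61085061, the last 3 on the plus strand. Annotated antisense genes share exon bases with Pdgfa (6330403L08Rik, 813 bases), Pdgfra (Gm42802, 456 bases) and Pdgfc (Gm16000, 147 bases). The strand setting of the counting is not given in the sources used here, so the levels of these 3 members are uncertain by reads from the other strand.

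The tables held 87494974 to 141920060 UMIs a lot, lot 29 being the shallowest, and 28971 of 29103 barcodes were kept, with a median of 8949 to 11595 UMIs a cell. Clustering without the 6 genes gave 21 clusters, of which 19 met the naming rule for a marker list. One of these, cluster 17, scored highest for the macrophage list, but neutrophil genes (S100a8, S100a9, Camp and Ngp) outnumbered C1qa and C1qb among its leading genes, so it is called by its number. The large classes were pre-granulosa-like cells (11947, the supporting lineage of the ovary), stromal-like cells (6433) and epithelial-like cells (6092), and 1534 cells stayed unnamed. Germ-like (1473), steroidogenic-like (413), Sertoli-like (391), endothelial-like (349), cluster 17 (134), mesonephric tubule-like (77), red blood cell-like (76) and neural crest-like (52) cells were the rest. Of the features that bear on the values, 285 of the 391 Sertoli-like cells came from lot 29, pre-granulosa-like cluster 2, with Hspa1a among its leading genes, took 2893 of its 3154 cells from lot 30, and UMIs of 4 Y-linked genes were found in 356, 915 and 93 cells of lots 26, 29 and 30. The lots shared 19 to 30 kept barcodes a pair, whose profiles were about as alike (median r 0.642 to 0.682) as those of other barcodes (0.636 to 0.657). Levels are CPM: in each lot, a gene's UMIs in a class divided by all UMIs of that class and scaled to a total of 1000000.

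Among the ligand genes, Pdgfa was the most widely found. Mesonephric tubule-like cells had 277, 252 and 416 CPM in lots 26, 29 and 30 (mean 315 ± 88.2, SD, n = 3), and Sertoli-like cells, the testis counterpart of granulosa cells, had 173, 216 and 118 CPM (169 ± 49.1). Germ-like cells followed at 100.2, 112 and 101 CPM. The lots of these classes did not overlap with each other or with any class below them. Epithelial-like cells had 64.7, 70.6 and 72.1 CPM, pre-granulosa-like cells 35.6, 45.4 and 43.2 CPM, and stromal-like cells 19.4, 20.8 and 20.8 CPM. The order germ-like, epithelial-like, pre-granulosa-like, stromal-like was therefore the same in every lot and without overlap. Steroidogenic-like cells (23.6, 45.9 and 37.4 CPM) overlapped the pre-granulosa-like range, and cluster 17 (20.97 ± 1.33) that of the stroma. Within the pre-granulosa-like class, cluster 1, with Spink4 and Fst among its leading genes, had 55.9, 70.2 and 72.4 CPM, above clusters 0 (30.8 to 40.4) and 2 (26.6 to 35.7). The tubule-like value rests on 77 cells and the Sertoli-like value of lot 30 on 16.

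Pdgfb was found chiefly in endothelial-like cells. These had 53.0, 31.7 and 46.4 CPM (43.7 ± 10.9), above cluster 17 at 9.74, 3.56 and 12.4 CPM and every other class in each lot. The 3 large somatic classes held 0.216 to 0.580 CPM in any lot, on 68 UMIs in pre-granulosa-like, 50 in epithelial-like and 20 in stromal-like cells. In red blood cell-like cells no Pdgfb UMI was found among 76 cells. Endothelial-like cells were 1.205% of the kept cells and held 52.3% ± 11.6 of all Pdgfb UMIs (498 in all).

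Pdgfc had another distribution, with its highest level among the large classes in epithelial-like cells, at 53.2, 50.9 and 50.3 CPM. Stromal-like cells had 21.4, 17.2 and 20.5 CPM and pre-granulosa-like cells 9.89, 9.72 and 11.01 CPM, and these 3 ranges did not overlap. Germ-like cells, at 4.87, 2.78 and 4.84 CPM, were lower than all of them. Epithelial-like cluster 9, led by Krt19, Hoxd11 and Lrrn4, had 109, 88.2 and 101 CPM, above the other epithelial-like clusters (34.6 to 50.7 in any lot). Mesonephric tubule-like cells (47.5, 40.9 and 109 CPM) overlapped the epithelial-like range, with lot 30 far above the other lots on 17 cells.

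Pdgfd was low throughout. Epithelial-like cells had 9.32, 7.98 and 9.62 CPM, stromal-like cells 6.83, 9.53 and 8.17 CPM, and steroidogenic-like cells 8.23, 7.37 and 6.24 CPM, and these ranges overlapped. Pre-granulosa-like cells, at 4.46, 3.29 and 3.92 CPM, lay below the epithelial-like and stromal-like ranges. Within the stroma, cluster 11, led by Foxd1 and Dkk2, had 12.1, 28.1 and 14.3 CPM and cluster 10, led by Lum and Ntrk2, 8.05, 11.5 and 15.9 CPM, against 4.52 to 6.01 CPM in clusters 3 and 4.

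**Figure D1:**
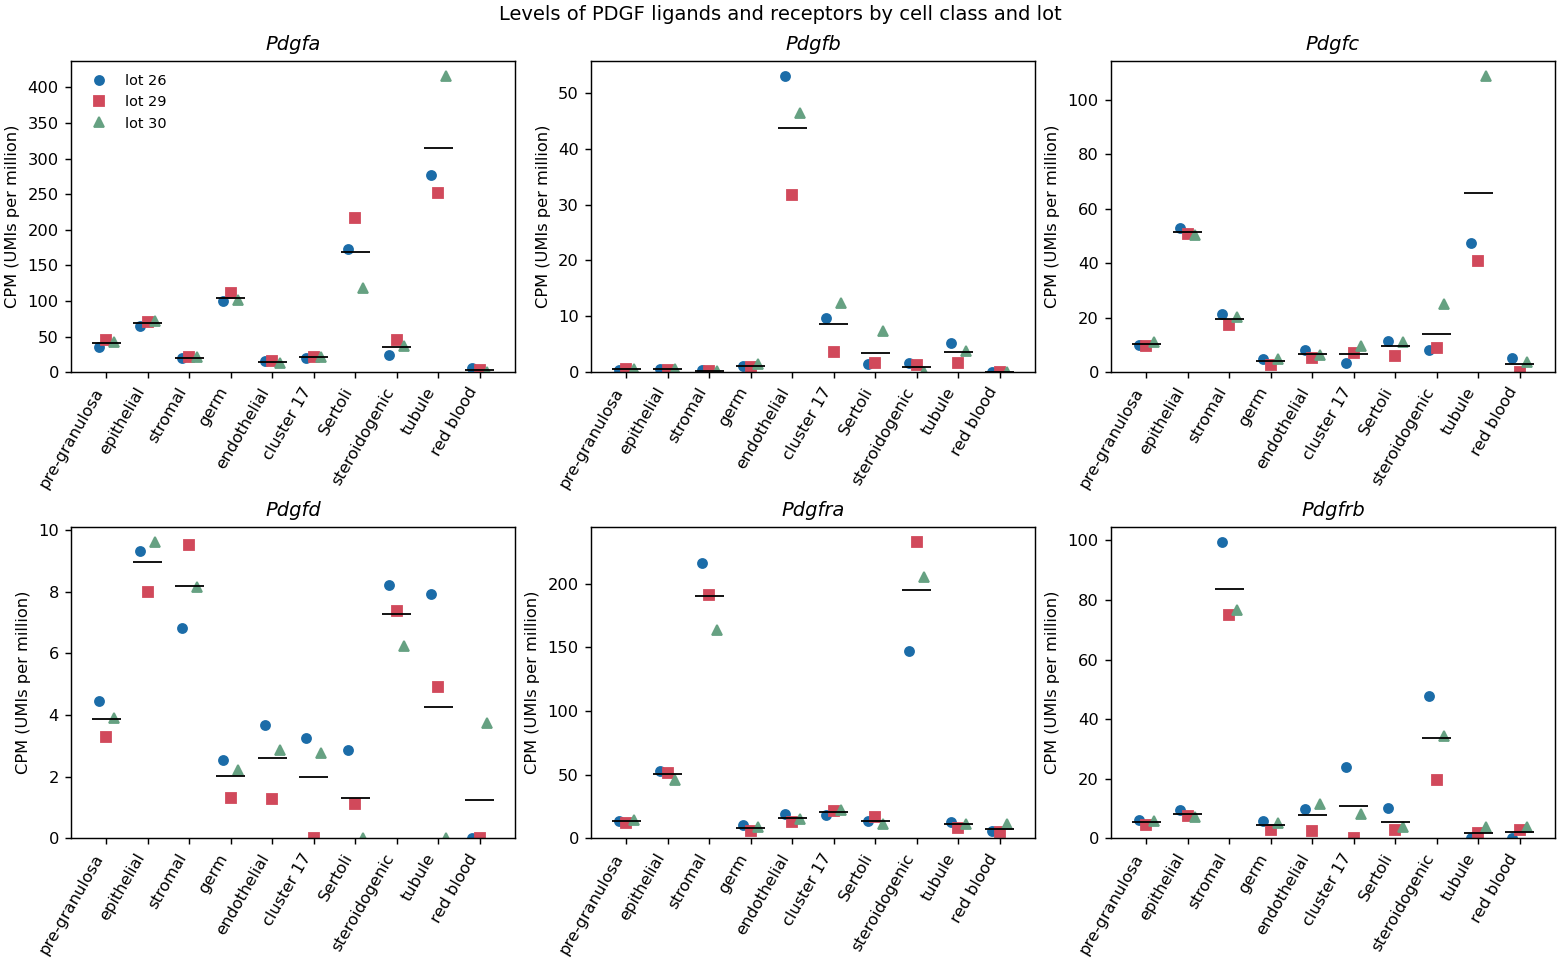
Each panel plots the level of 1 gene in CPM (vertical axis, from 0) in the 10 cell classes with at least 10 cells in every lot, with 1 symbol per lot and a bar at the mean of 3 lots. Pdgfb stands out in endothelial-like cells (31.7 to 53.0 CPM), Pdgfra in stromal-like and steroidogenic-like cells (148 to 233 CPM) and Pdgfrb in stromal-like cells (75.1 to 99.5 CPM).

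Both receptor genes were highest in stromal-like and steroidogenic-like cells. Pdgfra, the alpha receptor, was at 216, 191 and 164 CPM in stromal-like cells (190 ± 26.4) and at 148, 233 and 206 CPM in steroidogenic-like cells (195 ± 43.7), and the 2 ranges overlapped. A Y-linked UMI was found in 64.8%, 65.2% and 78.1% of the steroidogenic-like cells, led by Insl3 and Cyp17a1, against 1.42% to 14.2% of the stromal-like cells, so this class cannot be told apart from cells of male gonads. Among steroidogenic-like cells Pdgfra was at 204, 227 and 189 CPM with and at 78.4, 246 and 272 CPM without a Y-linked UMI in lots 26, 29 and 30, higher with it in lot 26 alone. Epithelial-like cells had 53.3, 51.4 and 46.1 CPM. Cluster 17 and the endothelial-like, Sertoli-like and pre-granulosa-like cells followed at means of 13.4 to 20.6 CPM with ranges that overlapped from each class to the next, and germ-like cells had 10.5, 5.85 and 9.07 CPM. The epithelial-like level thus lay below the stroma and above the supporting and germ lineages in every lot.

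Pdgfrb, the beta receptor, was at 99.5, 75.1 and 76.8 CPM in stromal-like cells (83.8 ± 13.6). Steroidogenic-like cells had 47.7, 19.5 and 34.3 CPM, below the stroma in each lot. No other class with 10 cells in every lot had a mean above 10.7 CPM, which was that of cluster 17 at 23.8, 0 and 8.27 CPM. Epithelial-like cells had 9.55, 7.62 and 7.11 CPM and pre-granulosa-like cells 6.23, 4.43 and 5.82 CPM.

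The receptors differed in how they were spread over the stromal-like clusters. Pdgfra was at 254, 248 and 197 CPM in cluster 3 (with Myh8 and Ngfr among its leading genes) and at 240, 192 and 225 CPM in cluster 10, and lowest in cluster 11 at 122, 110 and 96.1 CPM. Pdgfrb was highest in cluster 10, at 169, 130 and 164 CPM, and lowest by its mean in cluster 3, at 69.7, 44.9 and 56.2 CPM. By the means, the cluster with the most Pdgfra was the stromal-like cluster with the least Pdgfrb. The ranges of cluster 3 overlapped those of cluster 10 for Pdgfra and of cluster 11 for Pdgfrb, so neither rank was separated between lots. Cluster 10 lay above the other 3 in Pdgfrb in every lot. Cycling cluster 4, led by histone genes, had 183 ± 32.2 CPM of Pdgfra and 94.6 ± 19.96 CPM of Pdgfrb. Within the epithelial-like class the Hoxd11 cluster 9 was highest by its mean for both receptors, at 69.1 ± 10.1 and 13.0 ± 3.26 CPM. Over the 21 clusters the log2(CPM + 1) levels of Pdgfra and Pdgfrb had a Pearson r of 0.876, a description over clusters that share libraries and depth.

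**Figure D2:**
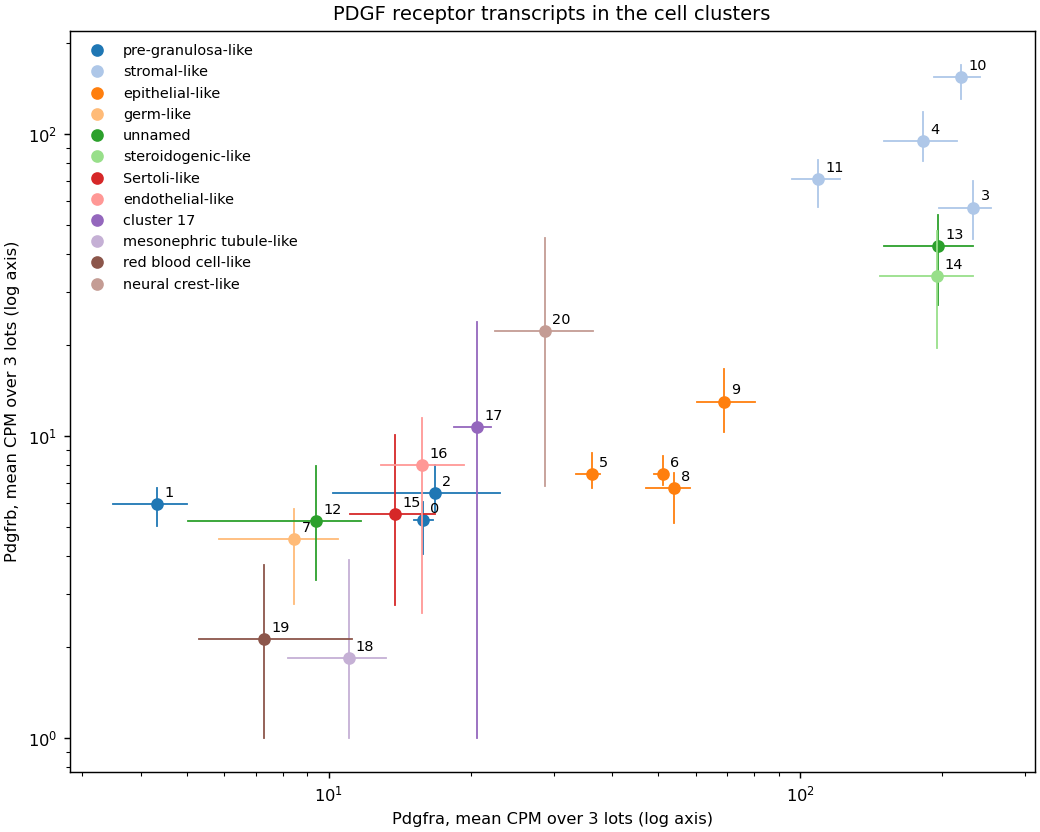
Pdgfra (horizontal) and Pdgfrb (vertical) are plotted as mean CPM of 3 lots on log axes, 1 point per cluster with its number and coloured by class, and lines span the lowest to the highest lot, drawn to 1 where the lowest lot was at 0. The stromal-like clusters 3, 4, 10 and 11 lie at the top right, and the epithelial-like clusters lie at 36.2 to 69.1 CPM of Pdgfra but 6.72 to 13.0 CPM of Pdgfrb.

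Smooth muscle cells and pericytes also carry Pdgfrb, so a list of 9 of their genes was read in each class. Their summed level was 390, 293 and 360 CPM in stromal-like, 130, 109 and 118 CPM in epithelial-like and 63.6, 68.0 and 65.3 CPM in pre-granulosa-like cells. Steroidogenic-like cells, second to the stroma in Pdgfrb, had 224, 125 and 249 CPM. No other class with 10 cells in every lot had a mean above 78.9 CPM, that of mesonephric tubule-like cells. In stromal-like cells all 9 genes were detected. Acta2 made up the largest part at 171 CPM, while the pericyte genes Rgs5, Kcnj8 and Abcc9 were at 18.7, 9.02 and 3.56 CPM. Among the stromal-like clusters the sum was highest by its mean in cluster 3 (406 ± 63.3), the cluster with the lowest mean of Pdgfrb, against 299 ± 35.0 in cluster 10. The listed genes did not go together between these clusters. Acta2 (216 against 114 CPM), Myh11, Rgs5 and Des had the higher mean in cluster 3. Kcnj8 (5.49 against 20.9 CPM), Notch3 (20.3 against 32.5 CPM), Abcc9, Cspg4 and Tagln had it in cluster 10. The part of mural cells in the Pdgfrb level was not tested.

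The UMIs of each gene were then divided among the classes. Stromal-like cells, 22.2% of the kept cells, held 61.1% ± 4.78 of all Pdgfra UMIs and 74.6% ± 1.25 of all Pdgfrb UMIs (mean and SD of 3 lots). Epithelial-like cells, 21.03% of the kept cells, held 54.1% ± 6.36 of the Pdgfc UMIs and 33.2% ± 6.37 of those of Pdgfa. Pre-granulosa-like cells, 41.2% of the kept cells, held 27.1% ± 3.68 of the Pdgfa UMIs, and 7.92% ± 2.05 and 8.90% ± 1.68 of the receptor UMIs. Germ-like cells, 5.08% of the kept cells, held 18.9% ± 8.67 of the Pdgfa UMIs. Shares of cells do not allow for depth, which differed between classes, while CPM does. Of all kept UMIs, germ-like cells held 18078640 of 125898949 in lot 26, 6842525 of 87474664 in lot 29 and 9926043 of 141398825 in lot 30. Part of their share of Pdgfa UMIs is therefore depth.

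**Figure D3:**
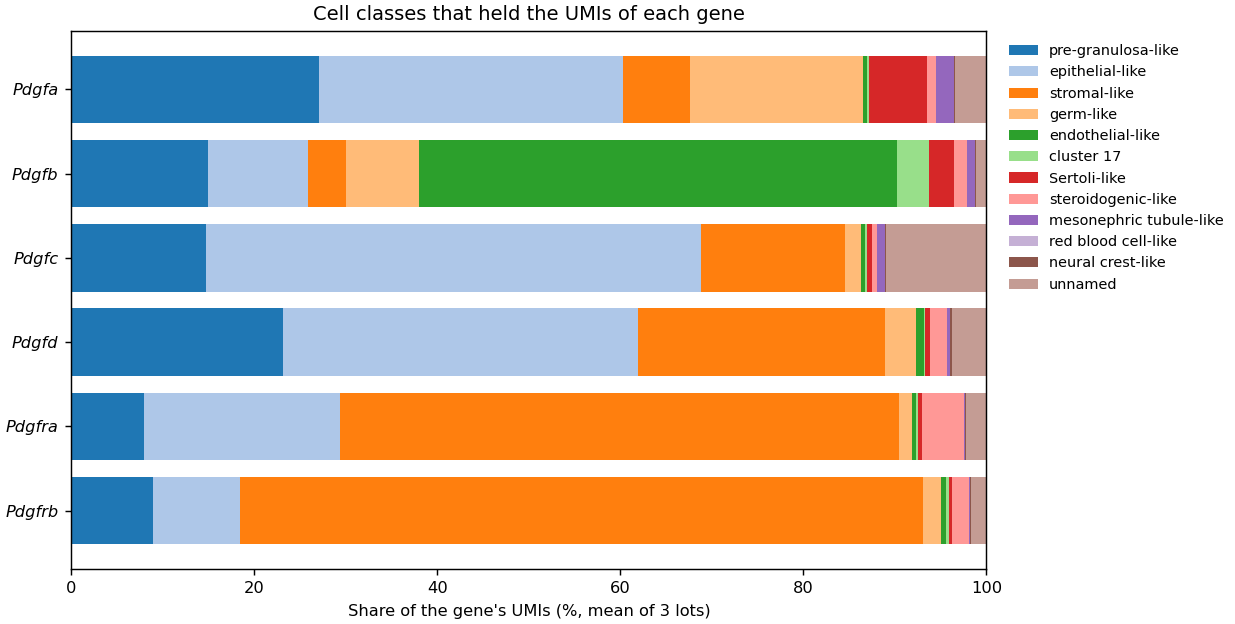
Bars divide all UMIs of each gene among the cell classes (horizontal axis, percent, mean of 3 lots). Stromal-like cells take 61.1% of Pdgfra and 74.6% of Pdgfrb, epithelial-like cells 54.1% of Pdgfc, and endothelial-like cells 52.3% of Pdgfb.

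Shares of cells with a UMI were compared after each cell had been thinned to 4000 UMIs, because median depth differed between classes (for example 18134 to 23767 UMIs over the lots in germ-like and 7836 to 10122 in stromal-like cells). Thinning left out 146 stromal-like, 50 pre-granulosa-like, 23 epithelial-like and 9 germ-like cells. Pdgfra was found in 48.7% of stromal-like cells (3064 of 6287, exact Clopper-Pearson 95% interval 47.5% to 49.98%) and Pdgfrb in 25.0% (23.9% to 26.05%), against 72.0% and 44.7% before thinning. The intervals cover counting error only. Pdgfra was found in 16.7% of epithelial-like cells (15.8% to 17.7%; 40.2% unthinned) and in 4.36% of pre-granulosa-like cells (4.00% to 4.75%; 11.1% unthinned).

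Endothelial-like and red blood cell-like cells were read as a reference for low shares of the receptors. The part of free RNA in their receptor UMIs was not tested. Endothelial-like cells (median 14132 to 15724 UMIs over the lots) had Pdgfra in 2.62% of 344 thinned cells (1.203% to 4.91%) and red blood cell-like cells (median 7490.5 to 11472 UMIs) in 5.48% of 73 (1.51% to 13.4%). The pre-granulosa-like share of Pdgfra (median 8306.5 to 11214 UMIs a cell) lies within both intervals, the second of which rests on 4 cells. Within that class Pdgfra was at 5.00, 3.50 and 4.49 CPM in cluster 1 and at 10.2 to 23.1 CPM in clusters 0 and 2, without overlap, so the class share is not of 1 level. For Pdgfrb the endothelial-like share was 1.45% (0.474% to 3.36%), and red blood cell-like cells had 0 of 73 (exact upper limit 4.93%; 3 counts would be 4.11%). The Pdgfrb shares of pre-granulosa-like cells (2.26%), germ-like cells (2.39%) and epithelial-like cells (2.97%) lie within that endothelial-like interval, which rests on 5 cells. Called doublets, 16.6% of the endothelial-like cells, are part of both endothelial-like shares, and without them the class fell from 8.01 to 2.84 CPM of Pdgfrb and from 15.8 to 8.80 CPM of Pdgfra. A background without doublets was not computed for the shares, so low shares of the receptors are given here as values. The interval of epithelial-like cells (2.55% to 3.42%) lay just above that of pre-granulosa-like cells (2.00% to 2.54%), but both pool the cells of all lots. By lot (26, 29 and 30) the shares were 3.03%, 2.71% and 3.13% against 2.63%, 1.73% and 2.32%. The test over lots, given below, did not call Pdgfrb between these classes unless the lot was a block. Steroidogenic-like cells had Pdgfrb in 10.5% (7.73% to 13.9%).

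Among the ligands, Pdgfa was found in 51.0% of Sertoli-like (45.9% to 56.1%), 33.3% of germ-like (30.9% to 35.7%), 22.8% of epithelial-like (21.7% to 23.9%) and 15.1% of pre-granulosa-like cells (14.4% to 15.7%). Its share in stromal-like cells, 6.59% (5.98% to 7.23%), lies within the interval of endothelial-like cells (5.52%, 3.36% to 8.49%). That interval rests on 19 cells of a class with called doublets and is no measured background for Pdgfa. In CPM the stromal-like lots (19.4 to 20.8) lay above the endothelial-like lots (13.6 to 16.2). Pdgfc was found in 18.8% of epithelial-like cells (17.8% to 19.8%) but 6.79% of stromal-like, 3.83% of pre-granulosa-like and 1.84% of germ-like cells. Pdgfb was found in 15.4% of endothelial-like cells (11.8% to 19.7%) and in 0.111% to 0.683% of the germ-like and the 3 large somatic classes. Without thinning the Pdgfb share of endothelial-like cells was 45.6%.

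**Figure D4:**
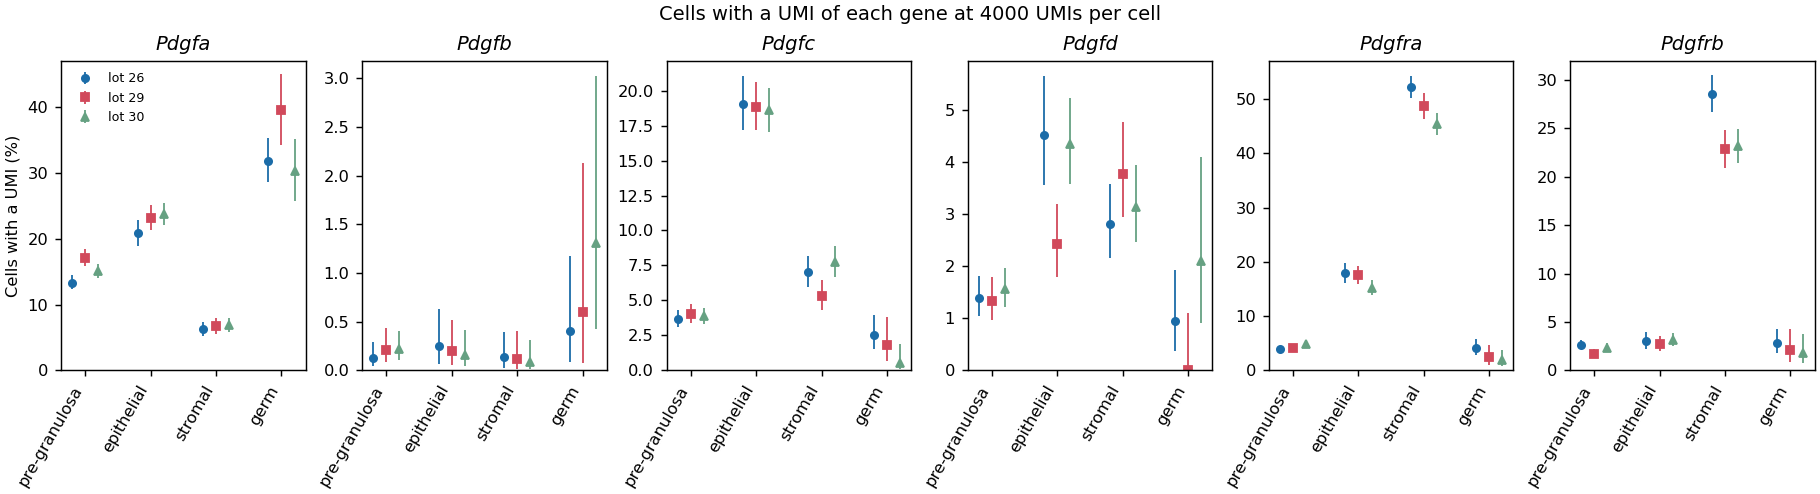
The share of cells with a UMI of each gene (vertical axis, percent) is plotted for 4 classes at 4000 UMIs a cell, 1 symbol per lot, with exact 95% intervals for counting error. Pdgfra and Pdgfrb are high in stromal-like cells in all 3 lots (45.4% to 52.2% and 22.8% to 28.5%), Pdgfc in epithelial-like cells (18.6% to 19.1%) and Pdgfa in germ-like cells (30.4% to 39.6%).

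Transcripts of both receptors were found in the same cell in 12.5% ± 2.06 of stromal-like cells at this depth, Pdgfra alone in 36.3% ± 1.47 and Pdgfrb alone in 12.4% ± 1.44 (mean and SD of 3 lots). Pdgfrb was found in 28.2%, 24.5% and 23.6% of the cells with a Pdgfra UMI and in 28.9%, 21.3% and 22.8% of those without. The shares were close, so over the whole class a Pdgfra UMI told little about a Pdgfrb UMI. In cluster 10 the shares were 52.4%, 41.9% and 46.7% with and 40.7%, 28.6% and 39.2% without, higher with Pdgfra in 3 of 3 lots. Cluster 3 (17.2% ± 1.68 with and 15.7% ± 2.66 without) and cluster 11 (28.2% ± 5.32 and 23.1% ± 3.12) were also higher with Pdgfra in 3 of 3 lots. Cluster 4 went the other way in 3 of 3 lots (25.0% ± 1.51 with and 29.4% ± 6.50 without). In lot 29 its shares were nearly equal, at 24.23% with and 24.24% without. In epithelial-like cells, where Pdgfra was found in 16.7%, both receptors were found in 0.654% ± 0.116 of cells. The ligand Pdgfa and Pdgfra were found together in 3.26% ± 0.263 of epithelial-like cells, and Pdgfc and Pdgfra in 3.71% ± 0.214. There Pdgfra was found in 14.5% ± 1.80 of cells with a Pdgfa UMI and in 17.6% ± 1.27 of those without, lower with Pdgfa in 3 of 3 lots. With a Pdgfc UMI the share was 19.7% ± 0.955 and without it 16.2% ± 1.66, higher with Pdgfc in 3 of 3 lots. At 4000 UMIs a cell without a UMI can still express the gene.

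Differences between classes were tested with edgeR's quasi-likelihood test on UMI sums (30 sums of 10 classes, 12657 genes, Benjamini-Hochberg adjustment over all of them), and a difference was called at an adjusted p under 0.05. All 6 genes were among those tested, in 7 comparisons. In stromal-like against pre-granulosa-like cells all 6 members were called, 4 higher and 2 lower, where 47.2% of all genes tested were called. The receptors rose most, Pdgfra by 3.72 on the log2 scale (SE 0.16, adjusted p = 5.33e-18, edgeR) and Pdgfrb by 3.81 (0.24, adjusted p = 1.84e-14, edgeR), each higher in 3 of 3 lots. The latent-form ligands also rose, Pdgfd by 0.95 (0.19, adjusted p = 1.14e-04, edgeR) and Pdgfc by 0.84 (0.16, adjusted p = 6.7e-05, edgeR), while Pdgfa was lower (log2 fold change -1.14, 0.18, adjusted p = 2.49e-06, edgeR). The median log2 fold change of the 6 genes was 0.90, against -0.00020 over all genes tested. Without the cells that had a Y-linked UMI the receptor differences were 3.69 and 3.78, and without called doublets 3.81 and 3.87. Pdgfb (-0.98, adjusted p = 0.0217, edgeR) rests on 20 and 68 UMIs and was not called without any single lot (edgeR adjusted p 0.0618 to 0.209, and 0.0135 to 0.209 over all alternatives), and Pdgfc fell to 0.11 (adjusted p = 0.535, edgeR) at a clustering resolution of 1.2, where all 804 cells of the Pdgfc-rich unnamed cluster 12 were placed in a pre-granulosa-like cluster of 823.

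The stroma and the epithelium differed in the opposite direction for ligands and receptors. In stromal-like against epithelial-like cells 5 of 6 members were called, 2 higher and 3 lower, where 29.3% of all genes tested were called. Pdgfrb was higher by a log2 difference of 3.30 (SE 0.23, adjusted p = 1.07e-12, edgeR) and Pdgfra by 1.84 (0.15, adjusted p = 1.29e-11, edgeR). Pdgfa was lower (-1.85, 0.18, adjusted p = 9.29e-10, edgeR), as was Pdgfc (-1.46, 0.16, adjusted p = 9.92e-09, edgeR), each lower in 3 of 3 lots. Pdgfd did not pass the test (-0.22, 0.19, adjusted p = 0.419, edgeR). Pdgfb (-0.96, adjusted p = 0.0447, edgeR) was not called in 10 of 14 alternatives, among them each that left out a lot. With the lot as a block 6438 genes were called in place of 3708, and the calls of the 6 members were the same.

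In epithelial-like against pre-granulosa-like cells 4 of 6 members were called, all higher, where 44% of all genes tested were called and 21.5% were called higher. The log2 fold change was 2.30 for Pdgfc (SE 0.16, adjusted p = 6.86e-13, edgeR), 1.88 for Pdgfra (0.15, adjusted p = 8.99e-12, edgeR), 1.17 for Pdgfd (0.19, adjusted p = 6.81e-06, edgeR) and 0.71 for Pdgfa (0.17, adjusted p = 0.00112, edgeR). Each was higher in 3 of 3 lots. Pdgfrb did not pass (0.51, 0.23, adjusted p = 0.0758, edgeR), and with the lot as a block it did (0.51, adjusted p = 0.00225, with 0.00225 to 0.358 over all alternatives). Pdgfb, at 0.534 CPM in pre-granulosa-like and 0.532 CPM in epithelial-like cells, gave -0.02 (0.30, adjusted p = 0.99, edgeR).

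Germ-like cells were set against the mean of the 3 large somatic classes, and 6 of 6 members were called, 2 higher and 4 lower, where 77% of all genes tested were called, 36.8% higher and 40.2% lower. Pdgfa was higher by a log2 difference of 1.40 (SE 0.13, adjusted p = 7.81e-11, edgeR), and Pdgfb by 1.37 (0.28, adjusted p = 8.63e-05, edgeR) at a low level of 1.15 ± 0.267 CPM. Pdgfra (-2.56), Pdgfc (-2.37), Pdgfrb (-1.72) and Pdgfd (-1.65) were lower. The direction of each was the same in all 14 alternatives.

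Endothelial-like cells, by the same comparison, were the class with the largest difference of any member. Pdgfb was higher by a log2 difference of 6.64 (SE 0.19, adjusted p = 6.36e-22, edgeR) and ranged from 6.51 to 6.87 over the alternatives. The other 5 members were lower, from -1.67 for Pdgfc to -0.89 for Pdgfrb, so that 6 of 6 members were called, where 42.5% of all genes tested were called. Pdgfrb (adjusted p = 0.0307, edgeR) was not called in 4 of 14 alternatives: without lot 29 (0.0603), without lot 30 (0.0789), with DESeq2 size factors (0.0547) and by the DESeq2 Wald test (0.0689). Its adjusted p ranged from 1.67e-04 to 0.0789. Scrublet called 16.6% of these cells doublets, and without them Pdgfa fell from 15.1 to 8.81 CPM, Pdgfc from 6.53 to 3.07, Pdgfra from 15.8 to 8.80 and Pdgfrb from 8.01 to 2.84.

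In cluster 17 Pdgfb was also higher than in the large somatic classes, by a log2 difference of 4.47 (SE 0.45, adjusted p = 2.36e-09, edgeR) on 19 UMIs. Pdgfa (-0.88), Pdgfc (-1.78) and Pdgfra (-1.30) were lower, so that 4 of 6 members were called, where 35.4% of all genes tested were called. Without lot 26, 2 were called. The neutrophil and macrophage genes of this cluster were not separated, so its values belong to no single cell type.

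Sertoli-like cells differed from pre-granulosa-like cells in Pdgfa, which was higher by a log2 difference of 2.06 (SE 0.19, adjusted p = 1.76e-10, edgeR) and in 3 of 3 lots, and stayed at 1.87 to 2.19 over the alternatives. Y-linked UMIs were found in 84.4%, 75.1% and 93.8% of the Sertoli-like cells and in 0.0436% to 0.780% of the pre-granulosa-like cells, so that sex and cell type cannot be told apart here. Pdgfb was higher (1.80, adjusted p = 0.00691, edgeR) on 10 UMIs and Pdgfd lower (-1.38, adjusted p = 0.0177, edgeR) on 8, which made 3 of 6 members called, where 37.3% of all genes tested were called. Without lot 29 or without lot 30 the count was 1, Pdgfa. Pdgfra (0.15) and Pdgfrb (-0.22) did not pass, and without called doublets (12.02% of these cells) Pdgfrb was lower by this test (log2 fold change -3.00, adjusted p = 0.00439, edgeR).

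**Figure D5:**
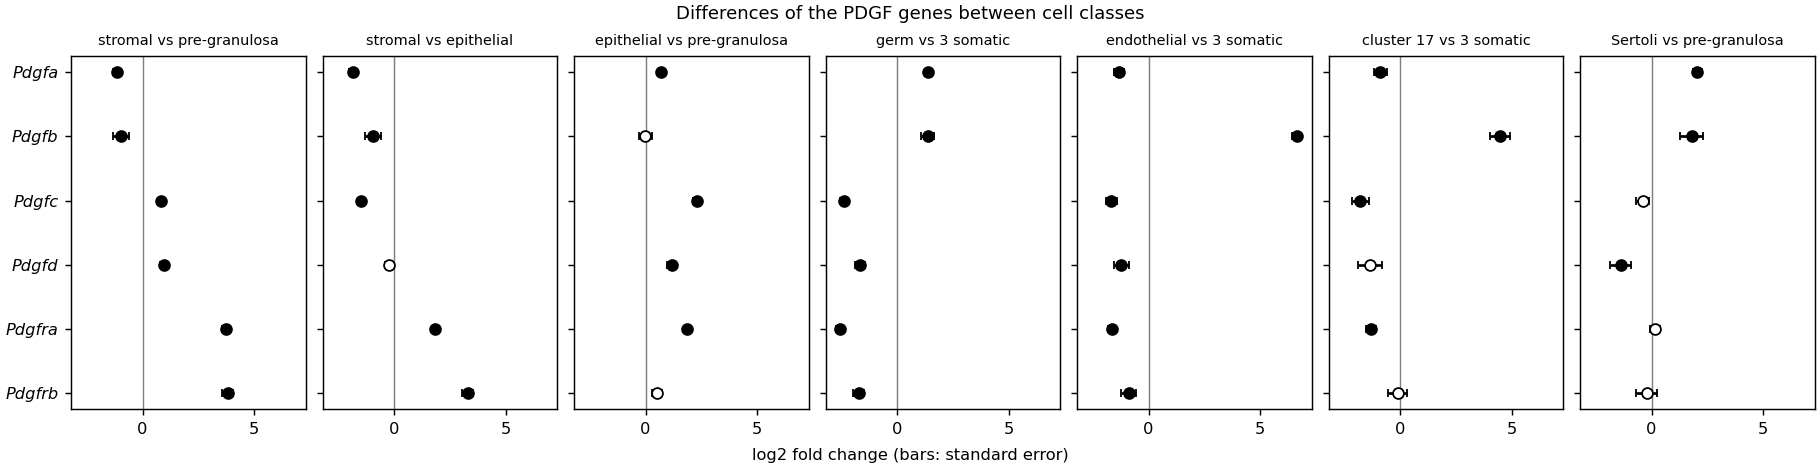
Each panel plots the log2 fold change of the 6 genes (horizontal axis) in 1 comparison, with bars for the standard error, filled points called by edgeR at an adjusted p under 0.05 and open points not. Receptors lie to the right in stromal-like cells (1.84 to 3.81), Pdgfb in endothelial-like cells (6.64), and Pdgfa in germ-like (1.40) and Sertoli-like cells (2.06).

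Genes that act before and after the receptors were read from 3 lists in stromal-like against pre-granulosa-like cells. Of 12 genes for ligand processing and binding, 5 were higher and 1 lower (median log2 fold change 0.40, against -0.00020 over all genes). Plaur, the receptor of the protease urokinase, had 4.00 (SE 0.53, adjusted p = 1.95e-07, edgeR) at 1.51 ± 0.132 CPM in the stroma, and the convertase gene Pcsk5 1.77 at 38.7 ± 8.15 CPM. Pcsk6, another convertase, was lower (-0.79). Of 18 signalling genes, 5 were higher, led by Pik3r1, a regulatory subunit of PI3-kinase, at 2.10 and the adaptor Grb10 at 1.42, and 2 were lower, the kinase Src (-0.35) and the adaptor Grb2 (-0.34), while 11 did not pass (median 0.17). Of 12 genes that dampen receptor signalling, 7 were higher and 1 lower (median 0.43). The Sprouty genes Spry1 (3.11, from 2.53 ± 1.57 to 24.4 ± 3.76 CPM) and Spry4 (2.95, from 1.28 ± 0.697 to 11.2 ± 1.51 CPM) rose most, and the phosphatase gene Ptpn2 was lower (-0.40). The share called was 50% of the processing, 38.9% of the signalling and 66.7% of the dampening list, against 47.2% of all genes.

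In stromal-like against epithelial-like cells 5, 6 and 5 genes of the processing, signalling and dampening lists were higher and 0, 0 and 1 lower, of 12, 18 and 12 tested, where 15.6% of all genes tested were higher and 13.7% lower. In epithelial-like against pre-granulosa-like cells the counts were 2, 2 and 5 higher and 2, 1 and 1 lower. The shares called were 33.3%, 16.7% and 50%, where 44% of all genes were called, so the processing and signalling lists lay below the share over all genes. Germ-like cells had 10 of 12 processing genes, 13 of 18 signalling genes and 5 of 12 dampening genes lower than the somatic classes, where 40.2% of all genes tested were lower. Of the dampening list 58.3% were called, where 77% of all genes were called. In endothelial-like cells 8 of 18 signalling genes were higher and 0 lower, where 20.3% of all genes were higher and 22.3% lower. The processing list had 5 higher and 4 lower there, and the dampening list 4 higher and 2 lower, of 12 each.

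The genes whose levels over the 21 clusters were most like those of each member were found by Pearson's r of log2(CPM + 1) among 12465 genes. For Pdgfra they included Fbn1 (0.958) and Ednra (0.946), and for Pdgfrb they were Plscr4 (0.955), Epha3 (0.953) and Col6a3 (0.953). For Pdgfb they were Gimap1 (0.949), Gimap8 (0.937) and Arhgap27 (0.922). For Pdgfa they were Fkbp4 (0.891), Rassf7 (0.871) and Homer2 (0.862), for Pdgfc Sema3c (0.904), Flrt3 (0.855) and Bmpr1b (0.824), and for Pdgfd Ikzf4 (0.934), Alcam (0.923) and Prkg1 (0.905). Clusters share libraries and are not independent, and these values are a description.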

How the data were processed

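UMI counts of 3 lots of thawed E12.5 fetal ovarian somatic cells were analysed. Per the labels and methods, the authors found barcodes with UMI-tools and aligned reads to GRCm38 with STAR 2.7. They assigned reads to genes with featureCounts 2.0.1 and counted UMIs per cell and gene with UMI-tools. They deposited raw counts, and the annotation release and strand setting are not given in the sources used here. Barcodes with 200 to 9000 genes and at most 10% mitochondrial UMIs were kept, as in the study. Cells were clustered with Seurat 5.3.0 (log-normalization to 10000, 1980 of 2000 variable genes, 50 principal components, resolution 0.8). The members and other listed genes (57 in all) were held out of the variable genes. A cluster was named from 11 marker lists where its score (mean log2(CPM + 1) above the median over clusters) was at least 1 with a lead of 0.25 and 3 raised markers. Cluster 12 stayed unnamed because its lead was too small, and cluster 13 because its cells were far shallower than their lots. Cluster 17 is called by its number because of its leading genes. The members and lists were chosen with earlier results of these data known.

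Scrublet in scanpy 1.11.5 called 566, 347 and 635 doublets in lots 26, 29 and 30, which were kept and removed in an alternative. Counts were summed per class and lot (30 sums, 184947 to 54139634 UMIs) and tested with edgeR 4.0.16 in R 4.3.3 (TMM, filterByExpr, quasi-likelihood, Benjamini-Hochberg over 12657 genes). All 10 classes entered 1 fit and shared 1 estimate of the spread for each gene. P-values therefore measure a spread between lots pooled over these classes, not that of the compared classes alone. The model was also run on simulated counts drawn without a lot effect, so that run does not bear on the pairing of classes within lots. Classes of a lot come from the same animals and are paired by construction: the deviations of same-lot sums from their class means had a median r of 0.114 over 135 pairs, against -0.0515 for different lots. The model had no lot term, and the replicate block is an alternative. Others were DESeq2 1.42.0 as a test, its size factors, no low-count filter, other cell filters, resolutions and components, the held-out members put back, called doublets or cells with a Y-linked UMI removed, and each lot left out. Named genes are the 6 members, in each pathway list up to 2 genes called in each direction with the largest change in the stroma against pre-granulosa-like cells, and the 3 genes nearest to each member over clusters. A gene near Pdgfra is not reported here. Positions are from GENCODE M21, and promoters were matched by symbol for 4 members. Pdgfrb was left out of this match, and Pdgfb had no entry.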

Additional observations from a re-analysis of the deposited data

Results flagged for a closer look

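The PDGF genes also gave signal in clusters outside the tests, each above the level that 3 counts would give. Cluster 12 stayed unnamed (804 cells, led by Lypd1, Pax8, Egfl6 and Aldh1a3). It had the highest Pdgfc level of any cluster, at 142, 121 and 110 CPM in lots 26, 29 and 30 (mean 124), with Pdgfa at 68.2, Pdgfd at 7.04, Pdgfra at 9.42 and Pdgfrb at 5.22 CPM. Its Pdgfra level (5.02 to 11.7 CPM) lay below the pre-granulosa-like range of 12.1 to 14.7 CPM, and its Pdgfc level above the epithelial-like range in every lot.

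Cluster 13 (730 cells, led by Ryr2 and Lars2) was the other unnamed cluster and had a median of 2691.5 UMIs a cell. Its mean levels were 89.3 CPM for Pdgfa, 46.3 for Pdgfc, 12.1 for Pdgfd, 196 for Pdgfra and 42.4 for Pdgfrb. Pdgfra was at 150, 206 and 232 CPM in the 3 lots, below, within and above the stromal-like range of 164 to 216 CPM, while the pre-granulosa list scored highest in this cluster. The part of low depth in these values was not tested.

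The neural crest-like cluster 20, led by Chgb, Chga and Phox2a, held 52 cells, with 8 in lot 30, and was therefore not tested. It had mean levels of 27.0 CPM for Pdgfa, 7.29 for Pdgfc, 28.8 for Pdgfra and 22.2 for Pdgfrb, on 5 to 21 UMIs each. Pdgfrb was at 14.5, 6.85 and 45.2 CPM in lots 26, 29 and 30, and the 6 UMIs of lot 30 came from 1 cell. Rgs5, on the pericyte list, was at 10.9, 422 and 211 CPM, so its level differed widely between lots.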

How the results depend on the processing

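Of 97 counts of called members under an alternative, 94 stayed within 1.5 times the reported count. The exceptions were left-out lots: over them the count ranged from 2 to 4 for cluster 17 and from 1 to 3 for Sertoli-like cells. Of 582 log2 fold changes, 537 kept direction and call, 28 lost the call, 8 gained it and 9 changed sign, and each of the 9 was a difference that did not pass the test. Of 396 levels, 39 moved by more than the spread between lots. In epithelial-like against pre-granulosa-like cells Pdgfb was 0.092 without lot 29 (-0.11 to 0.092 over left-out lots). In cluster 17 Pdgfrb was 0.0085 with DESeq2 size factors, 0.10 without lot 29 and 0.15 without lot 30 (-1.27 to 0.15). In Sertoli-like cells without lot 29 Pdgfc was 0.0061 (-0.70 to 0.0061), Pdgfra -0.21 (-0.21 to 0.24) and Pdgfrb 0.45 (-0.89 to 0.45), and Pdgfra was -0.023 with no low-count filter and -0.59 without called doublets. The cause was not tested. With the lot as a replicate block Pdgfrb in epithelial-like against pre-granulosa-like cells was called (adjusted p = 0.00225, edgeR), and no other call of a member changed. Genes called in stromal-like against epithelial-like cells ranged from 2253 without lot 30 to 6438 with the block (reported 3708), and in cluster 17 2902 were called without lot 26 (reported 4475), as were 3456 in endothelial-like cells (reported 5384). DESeq2's test moved the median of all genes in cluster 17 to 0.24. Without cells that had a Y-linked UMI too few Sertoli-like cells remained for their comparison. Depth limits Pdgfb and Pdgfd most (498 and 2147 UMIs in all).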
